A study of Mus musculus with 13 samples.

Results

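Receptor-type tyrosine phosphatases were followed across single excitatory neurons of the mouse claustrum. The members were selected on earlier results of the same counts, Ptprz1 as a leading gene of a cell group, and were the listed genes Ptprz1, Ptprg, Ptprs, Ptprf, Ptprk, Ptprm, Ptpro, Ptprt and Ptprr. Of the 10 genes listed, 9 had a row in the count tables used here, out of 23427 genes, and 1 was not analysed here. Cells with at least 1 count of Snap25, a synaptic vesicle fusion gene of neurons, and at least 1 count of Slc17a7, the vesicular glutamate transporter of excitatory neurons, were kept, which left 1011 of 1112 cells. The level of a gene in a mouse was the sum of its counts over the cells of a group per 1000000 counts of all genes in those cells (CPM). The library tags transcript ends, so no level was divided by transcript length, and levels were compared between cell groups rather than between genes.

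The cells came from 4 mature male C57BL/6 mice. In 1 mouse, labelled WT (wild type), a retrograde virus, rAAV2-retro-CAG-GFP, was placed in the anterior cingulate cortex. The virus guided the dissection of the claustrum, and cells were picked without regard to GFP (blindly sampled mouse, 238 cells). In the 3 other mice (projection mice 1, 2 and 3, with 224, 220 and 329 cells), green and red retrobeads, which are taken up by axons and carried back to the cell body, were injected into the lateral entorhinal cortex (LEC) and the retrosplenial cortex (RSC). Cells of these mice were picked as RSC-projecting (247 cells), LEC-projecting (286 cells) or unlabeled (240 cells). Cells were dissociated from acute slices, pooled over slices according to the labels, and collected by hand. For the blindly sampled mouse, however, the paper describes separate anterior and posterior sections, which were not told apart here. Unlabeled cells were not shown to lack a projection to either area. The mouse was the unit of replication in all tests, while shares of cells and the count ratios of Ptprz1 were pooled over mice.

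The median total count per cell was 26023 in the blindly sampled mouse and 138535 to 154262 in the projection mice. The blindly sampled mouse was also sequenced apart from the others, so its biology and its sequencing cannot be told apart. Each of the 13 plates held cells of 1 label except plate 12, of projection mouse 3, with 44 LEC and 34 RSC cells, so label and plate could be separated on that plate alone.

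Receptor-type tyrosine phosphatases cross the membrane once and carry phosphatase domains inside the cell that remove phosphate from tyrosines, the step opposite to that of tyrosine kinases. Their outer parts act as adhesion molecules. Ptprs and Ptprf belong to the LAR subfamily, which organises synapses and steers axons through heparan sulfate and chondroitin sulfate proteoglycans, TrkC and Slitrk proteins, and through liprins inside the cell. Ptprk, Ptprm and Ptprt carry a MAM domain and bind copies of themselves on neighbouring cells, where cadherins and catenins are among their substrates. Ptprz1 and Ptprg share a carbonic anhydrase-like domain that binds contactins. Ptprz1 is also a chondroitin sulfate proteoglycan that binds pleiotrophin and midkine and is best known in oligodendrocyte precursors and astrocytes. Ptpro has an outer part of fibronectin repeats, and Ptprr holds a motif that binds MAP kinases.

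Cells were split by Synpr (synaptoporin, a synaptic vesicle protein) at 200 CPM in the cell and by Slc30a3 (ZnT3, the transporter that loads zinc into synaptic vesicles) at 20 CPM. These genes and thresholds chose the groups, and their levels are no result. Synpr was at or above its threshold in 438 cells and below it in 573. Slc30a3 was at or above its threshold in 379 cells and below it in 632. Few cells lay near either line, but the Slc30a3 line depends on depth, because in shallow cells 1 count can exceed 20 CPM. Of the Slc30a3-low cells of the blindly sampled mouse, 3 of 151 (1.99%) held a Slc30a3 count. In projection mice 1, 2 and 3 the shares were 13.9%, 12.4% and 10.4%. The same line thus stands for different numbers of counts in different mice. The value of Synpr just below the threshold was 199.9 CPM and just above it 209.3 CPM, with 13 cells between 100 and 200 CPM. For Slc30a3 the values were 19.7 and 23.1 CPM, with 17 cells between 10 and 20 CPM. Together the thresholds gave 418 cells with Synpr alone (Synpr class), 359 with Slc30a3 alone (Slc30a3 class), 214 with neither (double-low class) and 20 with both. All splits used the same cells, so they are not independent of each other.

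Ptprs was the member with counts in most cells, 985 of 1011 (97.4%). Its level was 394 ± 15.5 CPM (SD, n = 4 mice, as for the other levels in this paragraph). Ptprt had counts in 854 cells (84.5%) at 287 ± 66.6 CPM. Ptprt was lowest in the blindly sampled mouse, at 194 CPM against 284 to 339 CPM in the others. Ptprf (55.9 ± 9.26 CPM, 459 cells), Ptprk (37.7 ± 11.4 CPM, 496 cells) and Ptprr (34.7 ± 4.82 CPM, 378 cells) formed a middle range. Ptprg was at 18.9 ± 6.29 CPM in 280 cells. Ptprz1 (5.09 ± 2.92 CPM, 57 cells) and Ptpro (4.74 ± 2.65 CPM, 65 cells) were rare. Ptprm was close to absent, at 0.769 ± 0.813 CPM with counts in 11 cells, and 99.3% of its 143 counts lay in the 10 cells with the most. A lower summed level can come from fewer cells with the transcript or from less of it per cell, so shares of cells with a count are given beside the levels that differed most.

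The 250 bases before the annotated starts of 4 members are shown, chosen after their values were seen. The members are the LAR members Ptprs and Ptprf and the adhesion member Ptprt, which split in opposite directions below, and Ptprz1. Ptprz1 counts lay mostly, but not only, in 1 class of cells. The sequences are from RefSeq on GRCm38.p6, matched by symbol. All 9 members matched, with 14 start sites, 2 of them in Ptprs. The windows are Ptprs at chr17:56462222-56462471 and at chr17:56476481-56476730, Ptprt at chr2:162661148-162661397, Ptprf at chr4:118291398-118291647, all on the minus strand, and Ptprz1 at chr6:22875252-22875501 on the plus strand. Sequences run 5′ to 3′ along the gene, and capitals mark the GC box GGGCGG or its reverse complement CCGCCC.
Ptprs, start at lower coordinate: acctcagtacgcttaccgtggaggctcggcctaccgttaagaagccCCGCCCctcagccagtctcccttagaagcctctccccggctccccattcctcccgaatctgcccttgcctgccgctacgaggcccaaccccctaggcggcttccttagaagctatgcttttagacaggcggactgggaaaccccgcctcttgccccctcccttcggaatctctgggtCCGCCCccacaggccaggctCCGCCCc
Ptprs, start at higher coordinate: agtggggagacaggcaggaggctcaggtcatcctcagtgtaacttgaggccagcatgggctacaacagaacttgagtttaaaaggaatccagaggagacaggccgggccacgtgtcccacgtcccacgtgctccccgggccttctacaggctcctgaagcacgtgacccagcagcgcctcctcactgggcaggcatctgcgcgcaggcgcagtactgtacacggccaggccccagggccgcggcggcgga
Ptprt: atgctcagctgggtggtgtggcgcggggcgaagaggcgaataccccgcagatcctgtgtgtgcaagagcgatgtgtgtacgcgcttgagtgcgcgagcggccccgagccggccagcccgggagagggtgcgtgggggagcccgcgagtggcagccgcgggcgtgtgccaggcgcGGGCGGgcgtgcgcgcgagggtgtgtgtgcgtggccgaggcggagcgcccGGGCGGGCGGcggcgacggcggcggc
Ptprf: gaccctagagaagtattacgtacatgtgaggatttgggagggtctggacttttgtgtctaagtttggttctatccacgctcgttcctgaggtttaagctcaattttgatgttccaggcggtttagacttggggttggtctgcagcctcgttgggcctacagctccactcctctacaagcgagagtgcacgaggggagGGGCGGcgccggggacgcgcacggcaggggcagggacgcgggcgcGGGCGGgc
Ptprz1: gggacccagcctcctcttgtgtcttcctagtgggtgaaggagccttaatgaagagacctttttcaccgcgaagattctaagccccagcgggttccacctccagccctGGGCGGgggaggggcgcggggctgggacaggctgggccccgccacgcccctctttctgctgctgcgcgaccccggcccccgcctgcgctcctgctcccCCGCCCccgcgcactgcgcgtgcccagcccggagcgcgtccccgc

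The GC box was found 3 times before the first Ptprs start, not at all before the second, 3 times before Ptprt (2 of these overlap), and 2 times each before Ptprf and Ptprz1. It occurred in 7 of the 14 member windows and in 32.7% of all 32851 windows of the same length. The TATA box TATAAA was in 0 of 14 windows, against 12.4% of all, searched on both strands. GC content was 76.4% before Ptprt, 71.6% before Ptprz1, 64.8% and 64% before Ptprs and 59.2% before Ptprf, against a median of 52.4% over all windows (quartiles 45.2% and 61.2%). The Ptprt window held 39 CpG dinucleotides and the Ptprz1 window 22, against a median of 6. The E box CAGCTG was in 1 member window, that of Ptprt, and in 13% of all windows. GC boxes thus stood before members that were higher in Synpr-high cells and before members that were lower there, and these matches are a description of the letters alone.

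The 2 LAR members measured, Ptprs and Ptprf, moved in opposite directions between Synpr-high and Synpr-low cells. Of the 8 members tested, Ptprs and Ptprt were higher in Synpr-high cells, Ptprf and Ptprr were lower, and 4 did not pass the test, whereas 8.82% of all 13641 genes tested passed it in either direction (4.48% higher and 4.34% lower). In each of these 4 genes the mice of both groups did not overlap, as was so for 15.7% of all genes. Ptprz1 had been known from earlier results as a gene of 1 side of this split, and its values are given further on with no test.

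Ptprs reached 498, 480, 462 and 438 CPM in Synpr-high cells of the blindly sampled mouse and projection mice 1, 2 and 3, against 321, 334, 318 and 347 CPM in Synpr-low cells of the same mice. The means were 469 ± 25.3 and 330 ± 13.4 CPM (SD, n = 4 mice), a log2 fold change of 0.56 (SE 0.09, adjusted p = 0.00364). Every Synpr-high value lay above every Synpr-low value. Nearly all cells of both groups held Ptprs (99.5% and 95.8%). The shares were 99.3% and 93.1% among cells with at least 20000 counts, each thinned to that total. The difference was thus one of amount more than of the share of cells.

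Ptprt, a homophilic adhesion phosphatase found mainly in the nervous system, differed more widely. It was at 281, 501, 448 and 435 CPM in Synpr-high cells and at 118, 166, 185 and 241 CPM in Synpr-low cells, in the same order of mice. The blindly sampled mouse was lowest in both groups, and the 2 groups did not overlap. The log2 fold change was 1.28 (SE 0.21, adjusted p = 0.00346). Ptprt counts were present in 96.8% of Synpr-high and 75% of Synpr-low cells. After thinning, the shares were 95.1% and 65.3%.

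**Figure D1:**
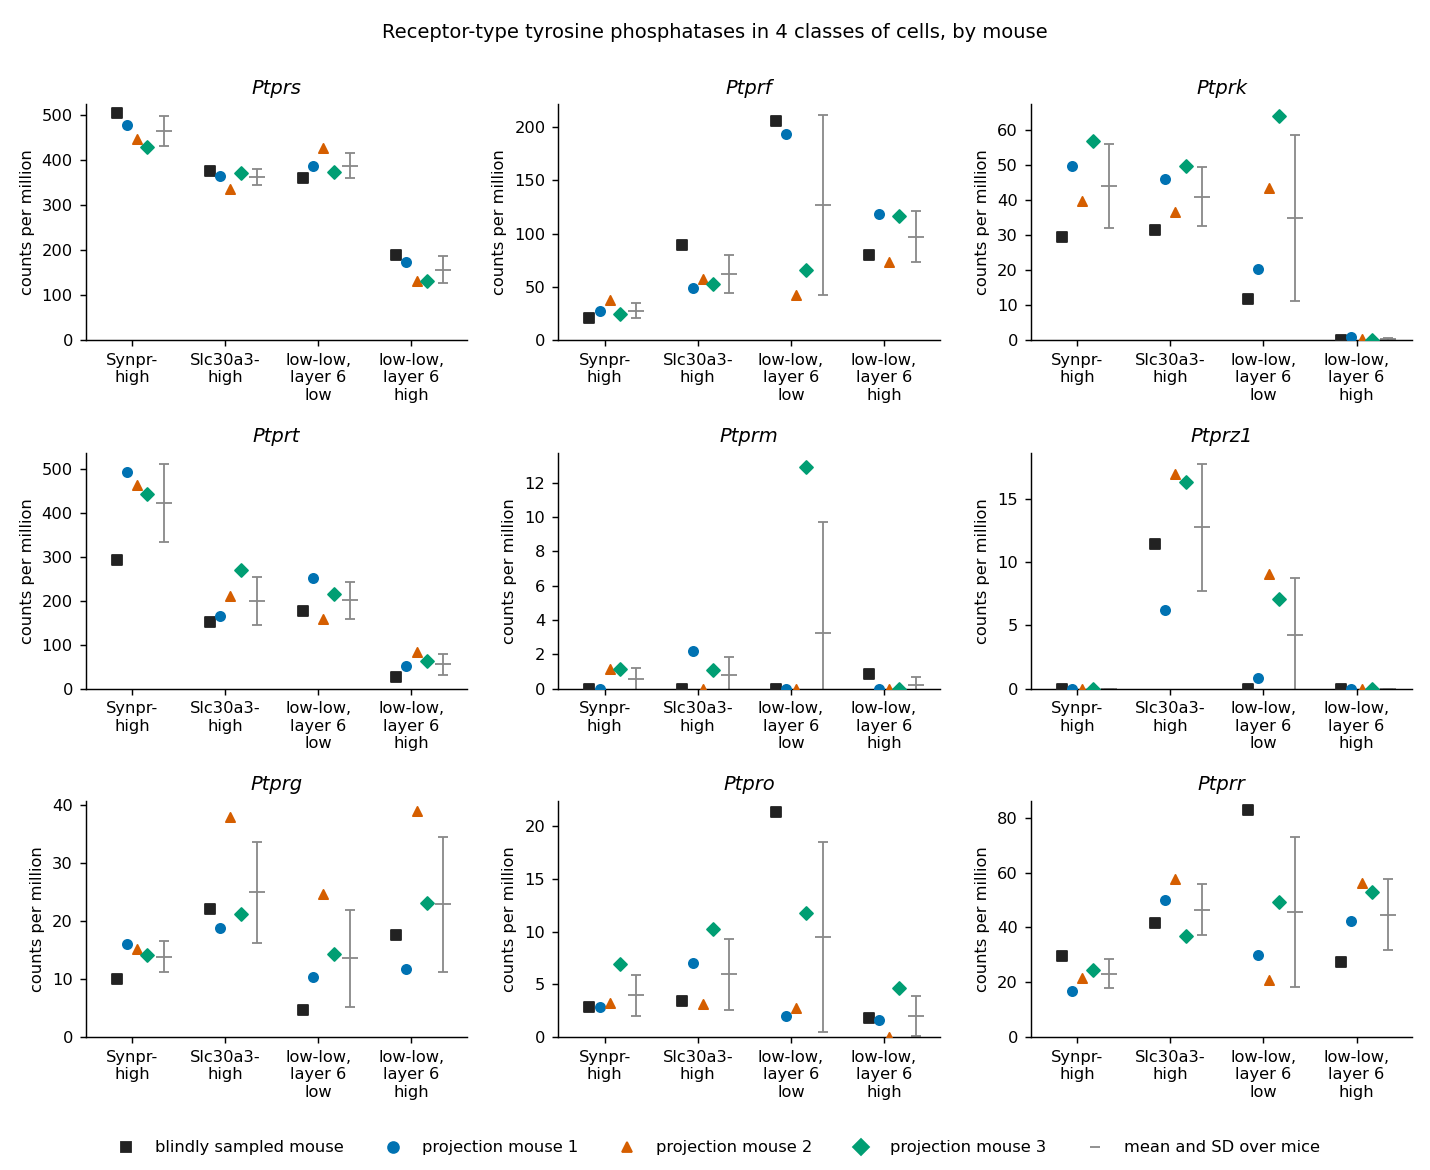
Level of each of the 9 members (CPM, linear axis, 1 panel per gene) in the Synpr class (Synpr-high), the Slc30a3 class (Slc30a3-high) and the double-low class (low-low) split by layer 6 marker level at 100 CPM. Each point is 1 mouse (n = 4 mice), and the line with bars is the mean ± SD. Ptprs and Ptprt were highest in the Synpr class (465 ± 33.3 and 424 ± 89.6 CPM), Ptprz1 had counts in the Slc30a3 class and in some double-low cells, and Ptprk was at 0 to 0.822 CPM in double-low cells with layer 6 markers.

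Ptprf went the other way. Its level was 22.5, 27.1, 40.9 and 28.3 CPM in Synpr-high cells and 99.0, 100.3, 58.1 and 61.8 CPM in Synpr-low cells. Projection mouse 2 showed the smallest gap, and the groups did not overlap. The log2 fold change was −1.38 (SE 0.25, adjusted p = 0.00704), and without projection mouse 1 the adjusted p was 0.0744. Cells with a Ptprf count made up 32.4% of Synpr-high and 55.3% of Synpr-low cells (21.4% and 46.1% after thinning). Ptprs and Ptprf thus marked opposite sides of the split.

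Ptprr, the MAP kinase-binding member, was at 30.0, 16.3, 21.3 and 23.7 CPM in Synpr-high cells and at 41.9, 43.2, 52.3 and 40.4 CPM in Synpr-low cells. The groups did not overlap, and the log2 fold change was −0.91 (SE 0.21, adjusted p = 0.0245). This call was the weakest of the 4, with an adjusted p of 0.107, 0.167 and 0.115 without projection mouse 1, 2 or 3. It was also lost without the 300 cells that held glial markers at 100 CPM or more in sum (−0.70, adjusted p = 0.142).

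Ptprk was higher in Synpr-high cells in each of the 4 mice (27.7, 49.2, 42.3 and 55.8 against 20.2, 30.4, 32.1 and 46.7 CPM), but the groups overlapped and the difference did not pass the test (log2 fold change 0.49, 95% interval −0.01 to 0.99, adjusted p = 0.339). With the mouse as a block, which compares the groups within each mouse, it passed (adjusted p = 0.0459). Ptprg was lower in Synpr-high cells in 3 of 4 mice (13.7 ± 2.28 against 22.7 ± 9.27 CPM, SD, n = 4), with a log2 fold change of −0.67 (95% interval −1.22 to −0.12, adjusted p = 0.209). Ptpro (3.95 ± 2.32 against 5.52 ± 3.10 CPM) and Ptprm (0.533 ± 0.615 against 1.07 ± 1.28 CPM) were too sparse for a firm statement, with intervals of −1.45 to 0.61 and −3.64 to 1.87 on the log2 scale.

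Among markers of other cells, those of layer 6 separated along the Synpr split, while the ranges of the other lists overlapped. The summed level of 5 layer 6 markers was 14.2 to 24.4 CPM in Synpr-high and 82.9 to 227 CPM in Synpr-low cells. The 6 astrocyte markers summed to 15.4 to 37.2 against 24.0 to 78.7 CPM, with Aqp4 at 0 in Synpr-high cells. The 5 oligodendrocyte markers summed to 23.2 to 329 against 42.4 to 537 CPM, and the 6 precursor markers to 0 to 11.6 against 0.510 to 39.8 CPM. The 5 inhibitory markers in the tables summed to 0 to 142 against 0 to 33.0 CPM. Without the 143 cells that held layer 6 markers at 100 CPM or more in sum, a setting chosen after seeing the data, all 4 calls remained: Ptprs at 0.42 (adjusted p = 0.0244), Ptprt at 1.09 (0.00293), Ptprf at −1.30 (0.0154) and Ptprr at −0.95 (0.029).

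The joint classes showed where these differences lay. Ptprs fell in steps, from 505, 478, 448 and 430 CPM in the Synpr class through 376, 365, 337 and 372 CPM in the Slc30a3 class to 237, 297, 272 and 278 CPM in the double-low class. No class overlapped another. Ptprt was at 293, 493, 465 and 444 CPM in the Synpr class, at 151, 166, 212 and 271 CPM in the Slc30a3 class and at 66.8, 167, 119 and 155 CPM in the double-low class. Here the Synpr class stood clear of the others, while the Slc30a3 and double-low classes overlapped. Ptprf had the reverse order (20.8, 27.8, 37.3 and 25.1, then 88.9, 48.7, 57.8 and 53.1, then 114, 161, 58.7 and 86.3 CPM), with the Synpr class below both others and those 2 overlapping. Ptprr was at 16.9 to 29.6 CPM in the Synpr class, below the 36.8 to 57.6 CPM of the Slc30a3 class and the 35.1 to 50.7 CPM of the double-low class.

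Among Slc30a3-low cells, the Synpr class against the double-low class gave 3 of 8 members past the test, where 5.67% of all 14329 genes passed (2.81% higher and 2.86% lower). The mice of both classes did not overlap in 4 of the 8, these 3 and Ptprr, against 13.9% of all genes. The 3 called were Ptprs (log2 fold change 0.85, SE 0.12, adjusted p = 0.0005), Ptprt (1.80, SE 0.36, adjusted p = 0.00699) and Ptprf (−1.86, SE 0.38, adjusted p = 0.00814). Without projection mouse 2 or 3 Ptprt missed the threshold (adjusted p = 0.0989 and 0.0564), and Ptprf did without projection mouse 3 (0.0814). With layer 6 marker cells left out, Ptprf alone remained called (−2.03, adjusted p = 0.0216), while Ptprs was at 0.34 (0.171) and Ptprt at 1.14 (0.0585). Ptprk was at 29.6 to 56.9 CPM in the Synpr class and 3.21 to 38.5 CPM in the double-low class, a log2 fold change of 1.27 (95% interval 0.30 to 2.24, adjusted p = 0.175) that passed in the fit blocked by mouse (1.45, adjusted p = 0.03). Ptprr had a log2 fold change of −0.79 (95% interval −1.74 to 0.15, adjusted p = 0.478). The sparser members overlapped between these classes: Ptprg was at 10.1 to 16.0 against 11 to 32.1 CPM (adjusted p = 0.801), Ptpro at 2.83 to 6.88 against 1.33 to 8.91 CPM (0.981) and Ptprm at 0 to 1.13 against 0 to 7.78 CPM (0.78).

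Among Synpr-low cells, the Slc30a3 class against the double-low class gave 0 of 8 members past edgeR's test, and 0.461% of all genes passed (0.174% higher and 0.286% lower). Of the 8, Ptprs alone had mice that did not overlap between these classes, as did 5.2% of all genes. An unadjusted p under 0.05 was reached by 2 of these members and 7.94% of all genes. The members were Ptprs and Ptprk, both higher in the Slc30a3 class in 4 of 4 mice (Ptprs log2 fold change 0.44, 95% interval 0.20 to 0.67, adjusted p = 0.202, and Ptprk 1.12, interval 0.15 to 2.08, adjusted p = 0.576). DESeq2 called 1 member, Ptprs (0.39, adjusted p = 0.0469). Without layer 6 marker cells, the Ptprs difference was −0.07. The log2 fold changes of the other members were 0.67 for Ptprt (adjusted p = 0.721), −0.74 for Ptprf (0.679), 0.42 for Ptprg, 0.17 for Ptprr, 0.36 for Ptpro and −1.30 for Ptprm, the last 4 with an adjusted p of 1.

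The double-low class was itself divided by the layer 6 markers. Split at 100 CPM of their sum, a line chosen after seeing the data and given as a description, it held 111 cells above and 103 below. For its cluster enriched in layer 6 markers such as Ctgf and Sla, the paper proposes a cortical phenotype. Whether the cells above the line belong to that cluster was not tested. Ptprk, a homophilic adhesion phosphatase, was at 0, 0.822, 0.319 and 0 CPM above the line, with 4 counts in 3 cells. It was at 11.8, 20.2, 43.5 and 64.0 CPM below the line, with 501 counts in 37 cells. The mice of the 2 sides did not overlap.

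Ptprs was at 190, 175, 131 and 132 CPM in double-low cells with layer 6 markers and at 362, 388, 426 and 375 CPM in those without. The latter values overlapped those of the Slc30a3 class. Ptprt was at 25.6, 51.0, 82.9 and 62.8 CPM with and at 177, 253, 159 and 216 CPM without layer 6 markers. In all, 3 of 9 members did not overlap, each lower with layer 6 markers, as was so for 3.45% of all genes in that direction and 6.23% in either. Ptprf (73.7 to 118 against 42.5 to 206 CPM), Ptprr (27.3 to 56.1 against 20.9 to 82.8 CPM) and Ptprg (11.8 to 38.9 against 4.73 to 24.7 CPM) overlapped. Median totals per cell were 99284 counts with and 118300 without layer 6 markers.

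Over all cells, the Slc30a3 split gave 0 of 8 members past edgeR's test, against 3.65% of all 13495 genes (1.3% higher and 2.36% lower), and 3 at an unadjusted p under 0.05 (Ptprt, Ptprr and Ptprg), as had 14.2% of all genes. Ptprt was at 151, 202, 212 and 268 CPM in Slc30a3-high and 218, 386, 347 and 383 CPM in Slc30a3-low cells, lower in 4 of 4 mice. Its log2 fold change of −0.70 (SE 0.18) had an adjusted p of 0.075 and passed in the fit blocked by mouse (0.00232), by DESeq2 (0.00908), without the blindly sampled mouse (0.0112) and without layer 6 marker cells (−0.91, 0.0083). Ptprr was at 40.9, 46.8, 55.5 and 35.0 against 33.8, 22.9, 27.6 and 30.1 CPM, higher in 4 of 4 mice with no overlap (0.62, SE 0.20, adjusted p = 0.154). Groups of mice did not overlap in 2 of the 8 members, Ptprr and Ptprs, and in 10.3% of all genes. Ptprs stayed within 355 to 385 CPM in Slc30a3-high and 388 to 419 CPM in Slc30a3-low cells (−0.14, 95% interval −0.32 to 0.04, adjusted p = 0.587). The other members overlapped: Ptprg was at 17.7 to 36.4 against 11.4 to 21.0 CPM (0.62, adjusted p = 0.352), Ptprf at 46.0 to 84.0 against 37.9 to 71.4 CPM (0.24, 0.81) and Ptprk at 28.8 to 48.6 against 20.9 to 53.0 CPM (0.14, 0.933). Ptpro was at 3.0 to 10.8 against 2.52 to 7.31 CPM (0.48, adjusted p = 0.843) and Ptprm at 0 to 2.03 against 0 to 2.53 CPM (−0.16, 0.999).

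**Figure D2:**
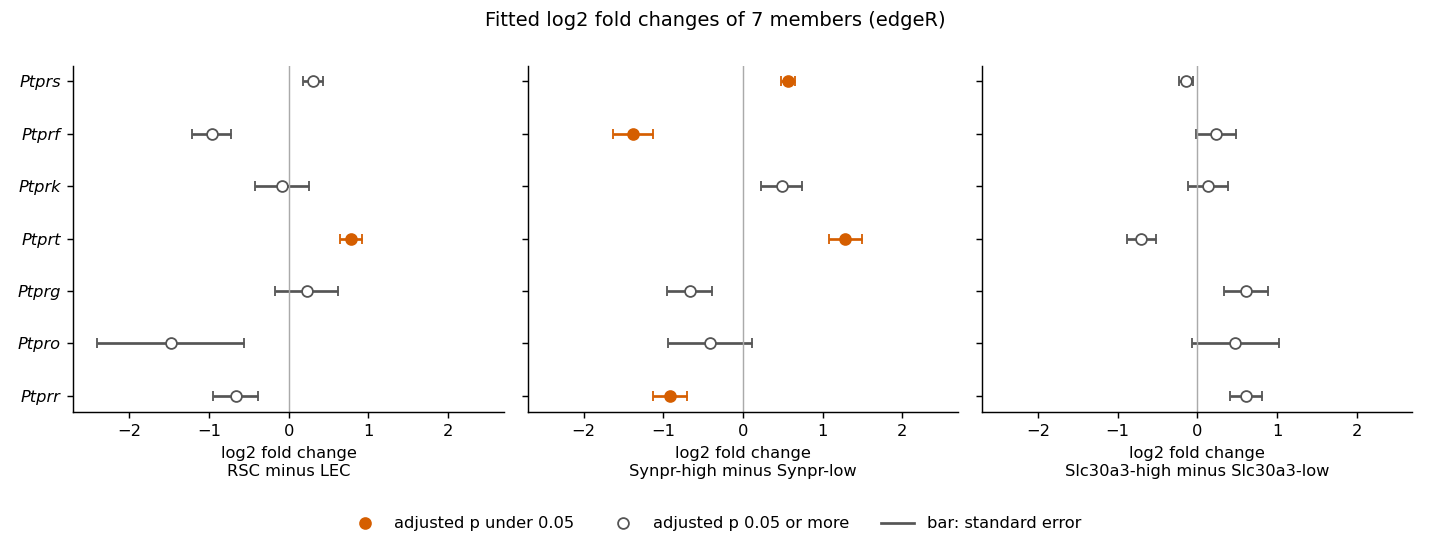
Fitted log2 fold change (points) with its standard error (bars) of 7 members in 3 comparisons of cells summed per mouse: RSC against LEC (n = 3 mice), Synpr-high against Synpr-low and Slc30a3-high against Slc30a3-low (n = 4 mice each). The linear axis is in log2 units with 0 as no difference. Ptprt lay at 0.78, 1.28 and −0.70 and Ptprf at −0.97, −1.38 and 0.24.

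Ptprz1 was the member with the sharpest distribution over cells, described here with no test because it was known beforehand to lead a cell group. It had counts in 48 of 359 cells of the Slc30a3 class (13.4%, exact Clopper-Pearson 95% interval 10.03% to 17.3%), with 668 counts in all and 10 or more counts in 28 of the cells. It had counts in 8 of 214 double-low cells (60 counts) and in 1 of 20 cells with both markers. In the Synpr class it had counts in 0 of 418 cells, which allows a share of cells with a count of up to 0.718% (3 of 418). These intervals and limits cover counting error only.

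By mouse, Ptprz1 was at 11.4, 6.24, 17.0 and 16.3 CPM in the Slc30a3 class, at 0, 0.468, 4.33 and 4.24 CPM in the double-low class and at 0 in the Synpr class of all 4 mice. With the Synpr class set at a floor of 3 counts, the Slc30a3 class was 278-fold higher. The Slc30a3 class exceeded the double-low class 5.45-fold (counting interval 4.18 to 7.23). The floor and the interval treat counts as independent, but cells with Ptprz1 held a median of 10 counts. The 278-fold is therefore no firm lower limit, and the interval is too narrow. None of the Ptprz1 counts in the double-low class fell in its 111 cells with layer 6 markers. In its 103 cells without them, 8 held Ptprz1, at 0, 0.817, 9.05 and 7.06 CPM in the same order of mice. The double-low cells without layer 6 markers thus lay closer to the Slc30a3 class than the whole double-low class did.

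**Figure D3:**
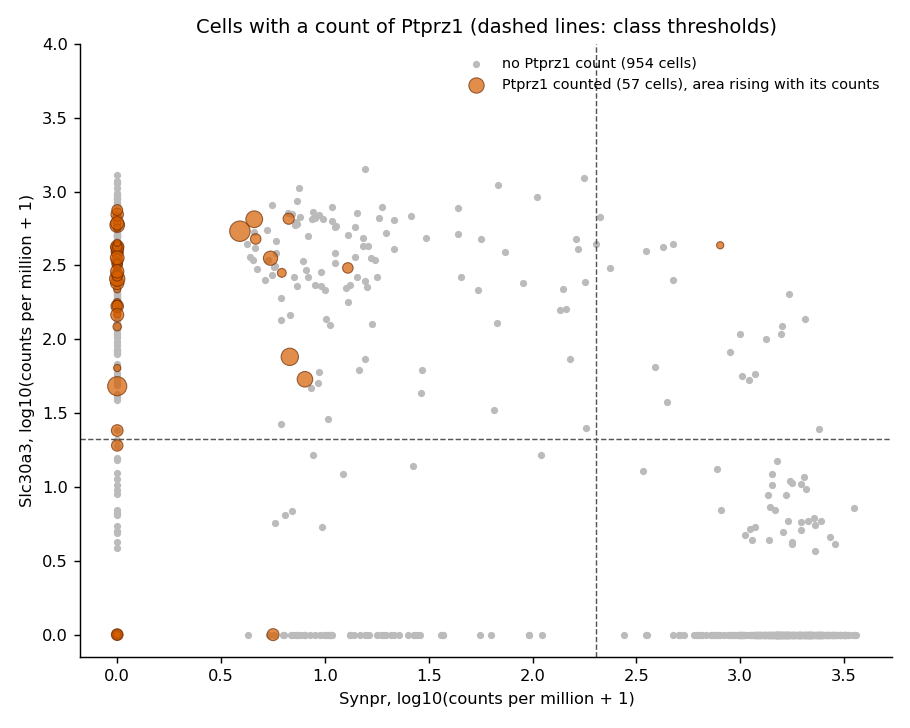
Each of 1011 cells by its Synpr level (horizontal axis) and Slc30a3 level (vertical axis), both as log10 of CPM plus 1, with the 57 cells that held a Ptprz1 count marked against the 954 that did not. The lines are the thresholds of 200 CPM for Synpr and 20 CPM for Slc30a3. Of the cells with Ptprz1, 56 lay at low Synpr, 48 of these also at high Slc30a3, and 1 lay at high Synpr.

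Most cells of the Slc30a3 class still had no Ptprz1 count. Cells with one were somewhat deeper (median total 165844 counts, against 125431 without). Of the 331 cells of the class with at least 20000 counts, 31 (9.37%) kept a count after thinning to that total. Because Ptprz1 is a marker of oligodendrocyte precursors, 6 precursor markers were counted in the same cells. Of the 48 cells with Ptprz1, 45 had no precursor marker count, and 940 of the 941 precursor counts lay in 2 cells. With all cells that held a precursor count left out, Ptprz1 was at 11.4, 5.04, 17.3 and 16.8 CPM in the Slc30a3 class (642 counts in 348 cells). With those cells it was at 11.4, 6.24, 17.0 and 16.3 CPM. Only precursor markers were used here, and a cell without a count of them can still hold precursor transcripts. Whether precursor or astrocyte transcripts contributed to the Ptprz1 counts was not tested.

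RSC-projecting and LEC-projecting cells differed in 1 of the 8 members tested, Ptprt, which was higher in RSC-projecting cells, against 3.95% of 13976 genes past the test (1.89% higher and 2.06% lower). The mice of both labels did not overlap in 5 of the 8, Ptprt, Ptprs, Ptprf, Ptprr and Ptprm, against 22.5% of all genes. Ptprm passed the filter on low counts only through RSC-projecting cells, so its lack of overlap and its test support nothing. Ptprz1 is again described with no test. In projection mice 1, 2 and 3, Ptprt was at 490, 440 and 427 CPM in RSC-projecting and 278, 237 and 293 CPM in LEC-projecting cells. The groups did not overlap, and the log2 fold change was 0.78 (SE 0.14, adjusted p = 0.0117). Unlabeled cells were at 195, 245 and 281 CPM, within or below the LEC-projecting range. The call was lost without projection mouse 2 (adjusted p = 0.165), without projection mouse 3 (0.0885) and without glial marker cells (0.71, 0.102). On plate 12, which held both labels, Ptprt was at 508 CPM in RSC and 268 CPM in LEC cells.

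In the projection mice, Ptprz1 had 534 counts in 36 LEC-projecting cells and 5 counts in 2 RSC-projecting cells. Its levels were 4.33, 14 and 14.4 CPM in LEC-projecting, 0.323, 7.66 and 3.79 CPM in unlabeled and 0.0762, 0 and 0.201 CPM in RSC-projecting cells. LEC-projecting cells exceeded RSC-projecting cells 89.7-fold over the summed counts, with a counting interval of 38.2 to 278, and the order was the same in all 3 mice. This interval treats counts as independent and is too narrow, as the RSC-projecting counts came from 2 cells. On plate 12 Ptprz1 was at 10.9 CPM in LEC and 0 in RSC cells.

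**Figure D4:**
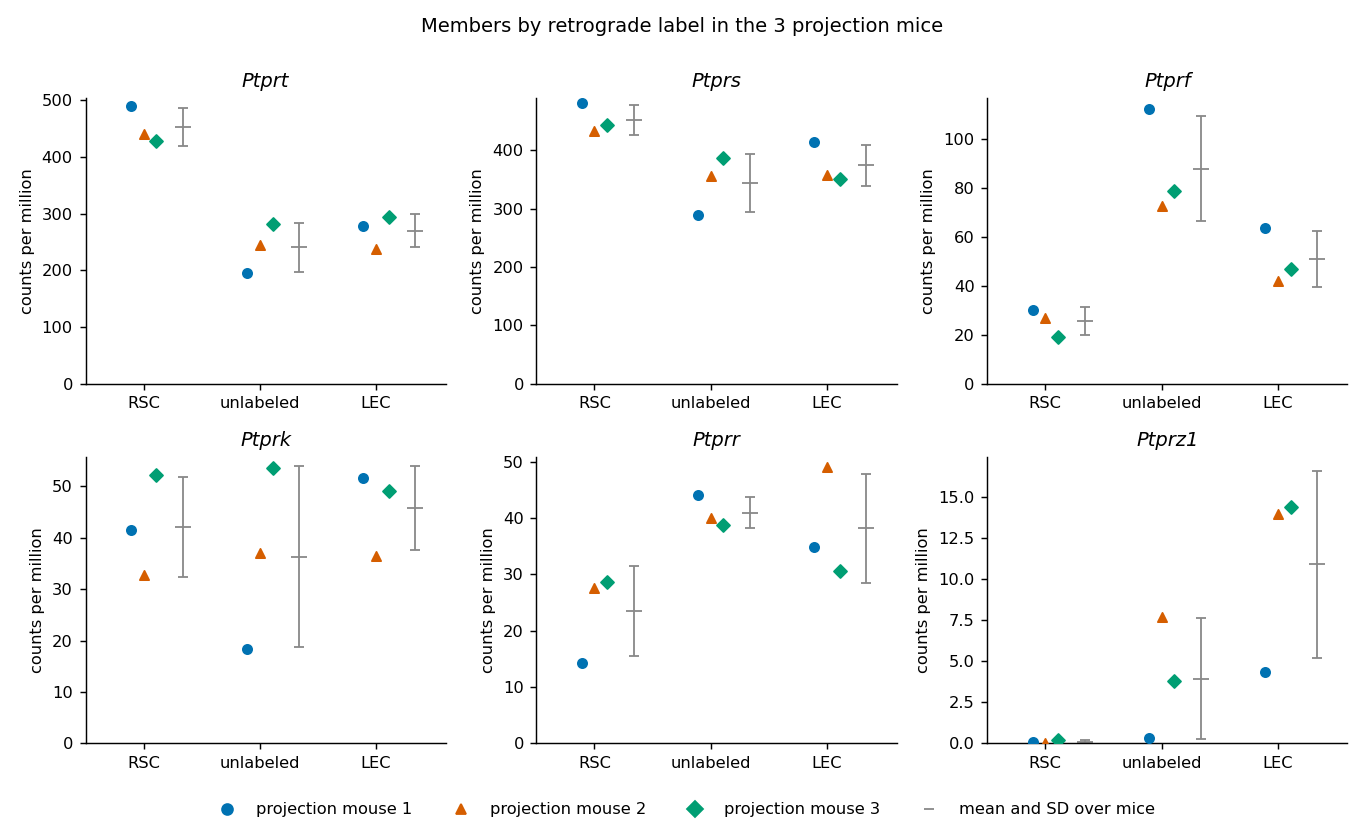
Level (CPM, linear axis) of Ptprt, Ptprs, Ptprf, Ptprk, Ptprr and Ptprz1 in RSC-projecting, unlabeled and LEC-projecting cells of the 3 projection mice. Points are mice, and the line with bars is the mean ± SD (n = 3). Ptprt was at 452 ± 32.9 CPM in RSC-projecting and 269 ± 29.3 CPM in LEC-projecting cells, Ptprf was highest in unlabeled cells and Ptprk overlapped in all groups.

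Ptprf was at 30.2, 26.9 and 19.2 CPM in RSC-projecting and 63.6, 42.0 and 46.6 CPM in LEC-projecting cells, lower in all 3 mice with no overlap. It missed the threshold narrowly (log2 fold change −0.97, SE 0.24, adjusted p = 0.0517). It passed in the fit blocked by mouse (−0.96, adjusted p = 0.0205), by DESeq2 (0.004) and without the filter on low counts (0.0276). Unlabeled cells held the most Ptprf, at 112, 72.5 and 78.7 CPM. The layer 6 markers also summed highest there, at 113 to 433 CPM against 14.4 to 40.8 CPM in RSC-projecting and 11.4 to 15.8 CPM in LEC-projecting cells. Their part in the Ptprf level was not tested.

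Ptprs was at 480, 433 and 442 CPM in RSC-projecting, 289, 355 and 387 CPM in unlabeled and 414, 357 and 350 CPM in LEC-projecting cells. RSC-projecting cells were higher in all 3 mice with no overlap, and the difference did not pass after adjustment (log2 fold change 0.31, 95% interval 0.07 to 0.54, adjusted p = 0.225). Ptprr was at 14.3, 27.6 and 28.7 against 34.8, 49.0 and 30.6 CPM, lower in all 3 mice (−0.66, 95% interval −1.21 to −0.11, adjusted p = 0.26). Ptprk was at 41.5, 32.7 and 52.1 against 51.7, 36.4 and 49.1 CPM, with groups that overlapped (−0.08, interval −0.74 to 0.57, adjusted p = 0.949). Ptprg had intermingled values (20.1 ± 7.96 against 17.5 ± 6.27 CPM, SD, n = 3).

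The rarest members gave little. Ptpro was at 2.51, 0.142 and 4.73 CPM in RSC-projecting and 4.19, 2.12 and 15.3 CPM in LEC-projecting cells (adjusted p = 0.497). Ptprm had 62 counts in 7 RSC-projecting cells of 3 mice and counts in 0 of 286 LEC-projecting cells, which allows a share of cells with a count of up to 1.05% (3 of 286). No test of Ptprm is used for these labels, because it passed the filter on low counts only through RSC-projecting cells. With 7 cells behind it, the value rests on very few cells.

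Astrocyte and inhibitory markers also differed between the labels, while the ranges of oligodendrocyte and precursor markers overlapped. The astrocyte markers summed to 14.5 to 33.8 CPM in RSC-projecting and 49.1 to 89.7 CPM in LEC-projecting cells, with Aqp4 at 0 in the former. The oligodendrocyte markers summed to 26.6 to 816 against 84.5 to 333 CPM and the precursor markers to 3.40 to 34.3 against 1.58 to 34.5 CPM. The inhibitory markers summed to 6.80 to 197 against 0.163 to 0.893 CPM, with Gad1, Gad2 and Sst at 0 in LEC-projecting cells. Ptprt, the member called, had a log2 fold change of 0.78 (adjusted p = 0.0112) without the 4 cells with Gad1 and Gad2 and of 0.78 (0.0116) without the 49 cells with a precursor count. Without glial marker cells it missed the threshold, as given above.

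Splitting the labelled cells by Synpr as well gave 4 groups per mouse, described with no test. In Synpr-high cells, Ptprt was at 537, 500 and 440 CPM in RSC-projecting and 459, 339 and 387 CPM in LEC-projecting cells of projection mice 1, 2 and 3, higher in RSC-projecting cells in each mouse. In Synpr-low cells it was at 151, 215 and 217 CPM in RSC-projecting and 197, 214 and 275 CPM in LEC-projecting cells. Within each label, every mouse had more Ptprt in its Synpr-high cells.

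Ptprs in Synpr-high cells was at 482, 444 and 434 CPM in RSC-projecting and 522, 481 and 449 CPM in LEC-projecting cells, lower in RSC-projecting cells in each mouse. In Synpr-low cells the order turned, with 465, 391 and 586 CPM in RSC-projecting and 366, 329 and 331 CPM in LEC-projecting cells. The RSC-projecting Synpr-low group had 34 cells and the LEC-projecting Synpr-high group 45, so these values are the least precise.

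**Figure D5:**
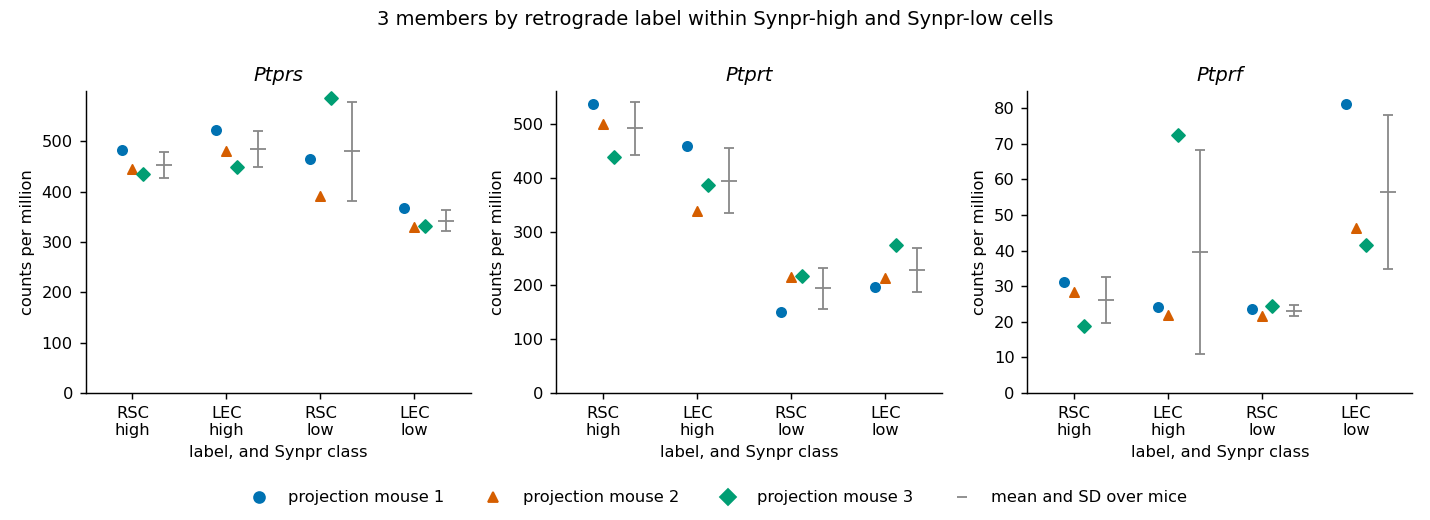
Level (CPM, linear axis) of Ptprs, Ptprt and Ptprf in RSC-projecting and LEC-projecting cells split into Synpr-high and Synpr-low cells, with 1 point per projection mouse and the mean ± SD (n = 3). Ptprt was at 440 to 537 CPM in RSC-projecting Synpr-high cells and at 151 to 217 CPM in RSC-projecting Synpr-low cells.

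Ptprf did not follow Synpr in RSC-projecting cells. It was at 31.2, 28.3 and 18.9 CPM in RSC-projecting Synpr-high cells and 23.5, 21.6 and 24.4 CPM in RSC-projecting Synpr-low cells. LEC-projecting Synpr-low cells were at 81.2, 46.4 and 41.5 CPM. In LEC-projecting Synpr-high cells projection mouse 3 stood at 72.6 CPM, above the 24.3 and 21.8 CPM of mice 1 and 2. Ptprr did, with 7.65, 23.1 and 27.1 CPM in RSC-projecting and 24.0, 12.3 and 11.7 CPM in LEC-projecting Synpr-high cells. In Synpr-low cells it was at 61.7, 44.5 and 54.2 CPM and at 39.7, 57.1 and 34.3 CPM, above the Synpr-high cells of the same label in every mouse.

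The rest of the pathway was read from lists of other phosphatases and of partner genes. Among the other receptor-type phosphatases tested, 0 were higher and 1 of 7 lower in Synpr-high cells, against 8.82% of all genes called in either direction. The gene was Ptpre, a phosphatase with a very short outer part, at 78.2 ± 29.3 CPM in Synpr-high and 205 ± 49.0 CPM in Synpr-low cells (log2 fold change −1.33, adjusted p = 0.008). Ptpre was also lower in RSC-projecting than in LEC-projecting cells (82.3 ± 18.9 against 225 ± 63.9 CPM, −1.42, adjusted p = 0.0153, 1 of 9 called against 3.95% of all genes) and higher in Slc30a3-high cells (1.07, adjusted p = 0.0128, 1 of 8 called against 3.65% of all genes). In the Synpr split of Slc30a3-low cells Ptpre was lower (−1.10, adjusted p = 0.0213), while Ptprc, the leukocyte phosphatase CD45, which was measured only through the Synpr class (4.48 ± 5.0 CPM against 0 in all double-low cells), is given as a description with no test. Microglial markers summed to 0 to 8.52 CPM in the Synpr class.

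Of 27 ligands and cell-surface partners tested in the Synpr split, 3 were higher and 5 lower, against 4.48% and 4.34% of all genes, with a median log2 fold change of 0.03 (−0.00 over all genes). Gpc4, a heparan sulfate proteoglycan and a known partner of Ptprs, was at 2.17 CPM in Synpr-high and 18.6 CPM in Synpr-low cells (−3.03, adjusted p = 0.00034). Gpc1, another glypican, was lower as well (16.8 against 52.6 CPM, −1.61, adjusted p = 0.0057), as was the contactin Cntn5 (2.97 against 18.3 CPM, −2.63, adjusted p = 0.0171). The chondroitin sulfate proteoglycan Vcan was higher (13.4 against 1.72 CPM, 2.92, adjusted p = 0.0144). So Ptprs was higher, and the glypicans Gpc1 and Gpc4 lower, in the same cells.

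In RSC-projecting against LEC-projecting cells 2 of 27 such partners were higher and 1 lower, against 1.89% and 2.06% of all genes. Gpc4 was again lower (2.23 against 21.1 CPM, −3.20, adjusted p = 0.00183), while Nfasc, an adhesion molecule of axon initial segments and nodes, rose (126 against 74.9 CPM, 0.78, adjusted p = 0.0147), as did Slitrk1, a synaptic partner of the LAR subfamily (52.4 against 25.6 CPM, 1.07, adjusted p = 0.0472). In Slc30a3-high cells 2 of 27 were higher, Gpc4 (2.79, adjusted p = 0.0122) and Gpc1 (1.17, adjusted p = 0.0397), and 0 lower, against 1.3% and 2.36% of all genes. In the Synpr split of Slc30a3-low cells 0 of 28 were higher and 3 lower, against 2.81% and 2.86% of all genes, namely Cntn5 (−3.54, adjusted p = 0.0188), Ncan (−0.86, adjusted p = 0.0384) and Cntn1, a ligand of Ptprz1 (−0.45, adjusted p = 0.0428).

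Of 22 intracellular partners and substrates, 2 were higher and 1 lower in Synpr-high cells, against 4.48% and 4.34% of all genes. Magi1, a junctional scaffold, was at 54.8 against 16.4 CPM (1.80, adjusted p = 0.00124), Ctnnb1, which encodes beta-catenin, at 271 against 177 CPM (0.67, adjusted p = 0.00289) and Caskin1, a scaffold that binds LAR phosphatases, at 22.6 against 37.7 CPM (−0.68, adjusted p = 0.0387). In RSC-projecting cells Magi1 (1.30, adjusted p = 0.0137) and Epha4, an ephrin receptor (0.90, adjusted p = 0.0266), were higher and 0 lower, against 1.89% and 2.06% of all genes. In Slc30a3-high cells Magi1 (−1.52, adjusted p = 0.0102) and Ctnnb1 (−0.52, adjusted p = 0.0325) were lower and 0 higher, against 2.36% and 1.3% of all genes. In the Synpr split of Slc30a3-low cells 3 were higher (Magi1 1.66, adjusted p = 0.00273, Epha4 1.25, adjusted p = 0.00866, and Ctnnb1 0.63, adjusted p = 0.0127) and 1 lower (Caskin1 −1.10, adjusted p = 0.0382), against 2.81% and 2.86% of all genes.

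Of 11 non-receptor tyrosine phosphatases tested, 0 passed edgeR's test or DESeq2's in any of the 5 comparisons, and 2 to 3 had an unadjusted p under 0.05. Of all genes, 16.4% had one between RSC-projecting and LEC-projecting cells, 20.3% in the Synpr split, 14.2% in the Slc30a3 split, 7.94% in the Slc30a3 split of Synpr-low cells and 17.1% in the Synpr split of Slc30a3-low cells. Between the Slc30a3 and double-low classes of Synpr-low cells, 0 genes of the partner lists passed edgeR's test. There, 5 of 28 ligands and 4 of 22 intracellular partners had an unadjusted p under 0.05, and DESeq2 called 0 and 1 of them.

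The genes most like each member were read over 14 sums of mouse and joint class, with each mouse's mean removed, among 8614 genes. The sums of a mouse share its library and depth, and classes with many contrasting genes give high values, so the correlations describe order only. Ptprs was most like Ier3 (Pearson's r = 0.985), Lingo1 (0.982) and Oprk1 (0.976). Ptprt was most like Kcnc1 (0.963), Oprk1 (0.958) and Sorbs2 (0.955), so that Oprk1 stood in both lists. Ptprf was most like Prkar2b (0.967) and Ptprk most like 1700025K23Rik (0.940) and Bsn (0.933). Ptprr was most like 9430020K01Rik (0.991) and Rgs14 (0.990), and Ptprz1 most like Thra (0.970), Cox8a (0.958) and Syn2 (0.956). The values of Ptprm (Spns1, 0.932), Ptpro (D9Ertd402e, 0.967) and Ptprg (Ap1s2, 0.957) rest on sparse counts. So do those of Ptprz1, which had 729 counts in 57 cells and none in the Synpr class of any mouse.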

How the data were processed

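Single cells from claustrum dissections of 4 mice were analysed. The authors deposited whole-number counts per gene and cell, not normalized, in separate tables for the blindly sampled and the projection mice, with tables of the animal, plate and projection label of each cell. The study's methods state that reads were assigned to cell barcodes and UMIs and aligned with STAR, and the submitters' processing notes name the mouse build NCBIM37 and Seurat. Versions, the annotation and the use of strand are not given in the sources used here. Totals per cell are given there in reads, and whether reads of 1 molecule were collapsed is not given in the sources used here, so several counts may come from 1 molecule and intervals cover counting error only. Members and gene lists were chosen with earlier results of these data known.

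Spike-ins were left out. The 211 genes in the first table only and 6641 in the second only were taken as 0 in the other, and all members analysed are in both. Cells lacking Snap25 (27) or, of the rest, Slc17a7 (74) were left out. No doublet caller was run. Counts were summed per mouse and group, with at least 5 cells per sum, and tested with edgeR 4.0.16 in R 4.3.3 (TMM, filterByExpr, quasi-likelihood test, Benjamini-Hochberg adjustment over all genes tested, threshold 0.05). The p-values measure the spread between mice. Intervals of fold changes come from the standard error by a normal approximation, which is narrow for so few mice. Shares have exact Clopper-Pearson intervals, and a count of 0 was given a floor of 3 counts. Scripts were tested on simulated data.

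All 9 members are named in each comparison, Ptprz1 with no test, and from each other list the called genes with the largest fold changes, at most 4. Sums of 1 mouse are paired by design. The correlation of their deviations from the group means was 0.0257 to 0.0755 for RSC and LEC, 0.147 to 0.529 for the Synpr split, 0.168 to 0.529 for the Slc30a3 split and 0.116 to 0.441 for the splits of the joint classes. Alternatives were DESeq2 1.42.0, no filter, the mouse as a block, each mouse left out, cells thinned to 20000 counts (84 shallower cells left out, 67 of the blindly sampled mouse), other thresholds (100 and 400 CPM for Synpr, 10 and 50 CPM for Slc30a3), and no cells with glial markers (300), with Gad1 and Gad2 (4) or, added after seeing the data, with precursor (49) or layer 6 markers (143).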

Additional observations from a re-analysis of the deposited data

Results flagged for a closer look

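In 5 of 62 groups of 4 mice, 1 mouse stood apart from the others by Dixon's test. The groups share cells and some values are 0, so this number cannot be set against a chance rate. Ptprz1 in Synpr-high cells was at 0.0803 CPM in projection mouse 2 (1 count) and at 0 in the others. Ptprg in the Slc30a3 class was at 37.8 CPM in projection mouse 2 and at 18.8 to 22.0 CPM in the others. Ptprm in the double-low class was at 7.78 CPM in projection mouse 3, from 1 cell with 55 counts and 1 cell with 1 count over all mice, and at 0 to 0.642 CPM in the others. Ptpro was at 7.43 CPM in Synpr-high cells of projection mouse 3, against 2.60 to 3.05 CPM in the others, and at 6.88 CPM in the Synpr class of that mouse, against 2.83 to 3.28 CPM.

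Ptprs differed in sign between labels along Synpr. RSC-projecting less LEC-projecting cells was −39.5, −37.5 and −15.4 CPM in Synpr-high cells of projection mice 1, 2 and 3 (mean −30.8 CPM) and 98.6, 61.2 and 255 CPM in Synpr-low cells (mean 138 CPM). This difference was not tested.

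The 101 cells left out, which lacked a count of Snap25 or of Slc17a7, also held members, above a floor of 2.34 CPM. Their summed levels were 185 CPM for Ptprs (392 CPM in kept cells), 213 CPM for Ptprt (315), 200.1 CPM for Ptprf (52.9), 42.0 CPM for Ptprr (33.8), 15.6 CPM for Ptprk (42.7), 7.79 CPM for Ptprg (19.3) and 7.79 CPM for Ptprz1 (5.51), the last from 10 counts in 3 cells. Ptprm was at 52.9 CPM, from 68 counts in 3 cells, against 1.08 CPM in kept cells. Markers of other cells were higher there, at 5546 against 50.9 CPM for inhibitory neurons, 2340 against 227 CPM for oligodendrocytes, 231 against 41.8 CPM for astrocytes and 159.6 against 14.2 CPM for precursors.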

How the results depend on the processing

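Of 547 fold changes of members recomputed under an alternative, Ptprz1 left out, 506 kept their direction and their side of the threshold, 13 lost and 15 gained the call, and 13 turned sign. The cause of each change below was not tested, except that settings without cells or mice hold fewer of them. The members called with DESeq2 for RSC against LEC include Ptprm, whose test supports nothing there. The number of members called was 1 for RSC against LEC (3 with DESeq2, 2 with no filter on low counts and with the mouse as a replicate block, 0 without glial marker cells, 0 to 1 with each mouse left out), 4 for the Synpr split (2 to 4 with each mouse left out), 0 for the Slc30a3 split (1 with DESeq2, with the block, and without layer 6 marker cells, 0 to 1 with each mouse left out), 0 for the Slc30a3 split of Synpr-low cells (1 with DESeq2 and without glial marker cells), and 3 for the Synpr split of Slc30a3-low cells (1 without layer 6 marker cells, 1 to 4 with each mouse left out).

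The number of all genes called was 552 for RSC against LEC (1140 with DESeq2, 192 without glial marker cells, 59 to 391 with each mouse left out), 1203 for the Synpr split (1995 with the block, 545 to 1581 with each mouse left out) and 493 for the Slc30a3 split (967 with DESeq2, 1044 with the block, 320 without glial marker cells, 108 to 646 with each mouse left out). It was 66 for the Slc30a3 split of Synpr-low cells (261 with DESeq2, 140 with the block, 136 without glial marker cells, 106 without precursor marker cells, 1 without layer 6 marker cells, 35 at a Synpr threshold of 100 CPM, 22 at a Slc30a3 threshold of 10 CPM, 3 to 80 with each mouse left out). It was 813 for the Synpr split of Slc30a3-low cells (1467 with DESeq2, 1253 with the block, 492 at 100 CPM of Synpr, 496 at 10 CPM of Slc30a3, 316 to 1224 with each mouse left out).

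Sign changes touched fold changes that had not passed the test. With each mouse left out, Ptprg ranged from −0.033 to 0.56 and Ptprk from −0.21 to 0.033 for RSC against LEC, Ptprm from −1.54 to 0.18 in the Slc30a3 split, and Ptpro from −0.033 to 0.77 in the Slc30a3 split of Synpr-low cells and from −0.43 to 0.17 in the Synpr split of Slc30a3-low cells. Without layer 6 marker cells, Ptprk was −0.050 in the Slc30a3 split, Ptprs −0.069 and Ptpro −0.44 in the Slc30a3 split of Synpr-low cells, and Ptprg 0.038 in the Synpr split of Slc30a3-low cells. Without glial marker cells, Ptprm was 6.55 and 5.08 in these 2 splits. In the last, Ptpro was 0.042 with the block and 0.13 with thinned cells. The block, with sums paired by mouse, changed no other member's call than those given beside the results. Depth limits Ptprm, Ptpro and Ptprz1, whose counts lay in 11, 65 and 57 cells.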
